A study of Mus musculus with 4 samples.

Results

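Expression of 10 genes at the core of the Hippo pathway was followed in induced hepatocyte-like (iHep) cells grown in 3D and in 2D culture. The transcription arm held the coactivators Yap1 and Wwtr1 (the gene of TAZ) and the DNA-binding partners Tead1, Tead2, Tead3 and Tead4. The kinase arm held Stk3, Stk4, Sav1 and Lats1. Probes of the members were found by name on the arrays, without use of their values. The members themselves were chosen with earlier results of these data known. They had 22 of the 41174 noncontrol probes, of which 19 were kept because 2 or more arrays read them well above background, and all 10 genes were among the 16450 genes tested.

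The iHep cells came from C57BL/6 mice and, per the labels, were derived from cells called MDFs. Each of 2 independent experiments, iHep-1 and iHep-2, gave 1 array of a 3D culture and 1 array of a 2D culture, so each culture had 2 arrays, a number that limits the precision. In the 2D titles a plus sign follows the experiment's name. The labels do not explain it, and whatever it marks cannot be told apart from culture. No source used here says what made the cultures 3D, or which factors induced the cells.

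In the Hippo pathway, the kinases MST2 (gene Stk3) and MST1 (gene Stk4) work with the scaffold protein SAV1 to activate the LATS kinases. Active LATS kinases phosphorylate YAP and TAZ, which then stay in the cytoplasm or are degraded. Unphosphorylated YAP and TAZ enter the nucleus and bind TEAD proteins, which carry them to target genes. In liver the pathway is known for limiting organ size and for holding hepatocytes in their mature state, and YAP and TAZ respond to cell shape, contact and matrix stiffness. The arrays measured mRNA, and neither phosphorylation nor the place of a protein in the cell was measured.

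Values are log2 of the background-corrected signal relative to the 75th percentile of the same array, so 0 is the 75th percentile and negative values lie below it. Differences are 3D minus 2D in log2 units. Where a pair of values is given for a culture or for a difference, iHep-1 stands first and iHep-2 second. The level of one probe was not compared with the level of another.

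Hepatocyte markers were bright in both cultures, and 7 of the 8 were well above background on all 4 arrays. Their summed signal was 896 and 1429 times the 75th percentile in 3D, against 870 and 662 in 2D, and most of each came from Alb and Apoa1. The single hepatocyte markers were divided: 4 were higher in 3D in both experiments and 4 had opposite signs. Those 4 were Alb (-0.17 and 0.76), Ttr (-0.33 and 1.86), Hnf4a (-0.81 and 0.23) and Foxa2 (2.83 and -2.38). Of 8 fibroblast markers 3 were well above background on all arrays, and Thy1 was not above background on any. The fibroblast sums were 8.35 and 7.82 in 3D, against 5.49 and 5.01 in 2D, and most of each came from Pdgfra. The single fibroblast markers were divided: of the 5 tested, 3 had positive differences in each experiment and 2 had negative ones. Those 2 were Pdgfrb (-1.08 and -3.33) and Twist2 (-0.08 and -1.06). Biliary markers (6 of 6 above background on all arrays) summed to 25.7 and 30.6 in 3D, against 16.3 and 47.1 in 2D. Endothelial markers were near background, with Pecam1, Kdr and Tek not above it on any array and sums of 0.0375 and 0.0610 in 3D, against 0.124 and 0.0934 in 2D. Of 4 blood markers, Ptprc was not above background on any array, and the sums were 1.23 and 0.0742 in 3D, against 1.55 and 0.172 in 2D. Markers of cycling cells summed to 2.40 and 1.44 in 3D, against 6.79 and 20.2 in 2D, and 7 of 8 were lower in 3D in both experiments. The 75th percentile itself was 594 and 399 intensity units in 3D, against 523 and 616 in 2D.

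Of the 10 members, 8 had lower mRNA signal in 3D than in 2D culture in both experiments, and 0 were higher in both. The exceptions were Yap1 and Tead3, which were lower in iHep-1 and higher in iHep-2. The same pattern, lower in each experiment, was seen in 33.0% of all tested genes, whereas 33.2% were higher in each and 33.8% had opposite signs. Tead4 had the largest difference, at 44.2% of its 2D signal in iHep-1 and 18.3% in iHep-2. Wwtr1, Tead1 and Tead2 were also lower in both experiments, as were all 4 members of the kinase arm. Mean differences of the kinase arm were smaller than those of Wwtr1, Tead1 and Tead2, though Sav1 (-0.62) was near Tead2 (-0.65). In iHep-1, Sav1 (-0.45) differed more than Tead1 (-0.42) and Tead2 (-0.36). By limma, 0 members passed an adjusted p of 0.05 over all genes (0% of all tested genes passed), with adjusted p-values from 0.684 to 0.989. At an unadjusted p under 0.05 there were 2 members, Tead4 and Wwtr1, against 2.98% of all genes in that direction. With the experiment as a replicate block, Wwtr1 had a limma unadjusted p = 0.0527 (adjusted p = 0.381), which left Tead4 as the 1 member under 0.05, against 4.89% of all genes. The cycling-cell markers moved the same way as these 8 members, and their part in the result was not tested. In these bulk samples, fewer cells expressing a gene and less RNA per cell cannot be told apart.

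**Figure D1:**
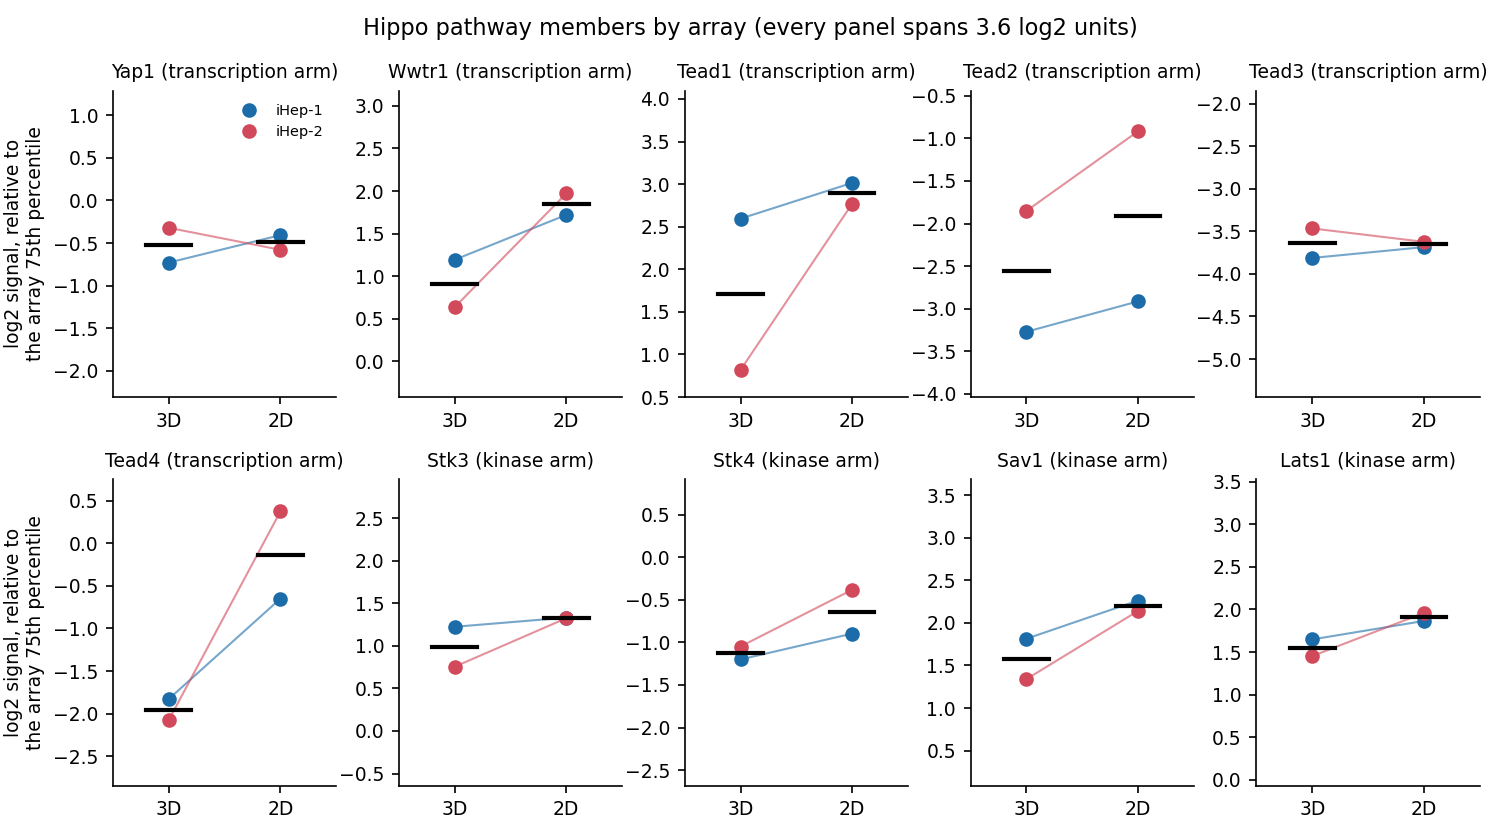
Scaled log2 signal of each member (vertical axis, log2 units relative to the array's 75th percentile) in 3D and 2D culture. Points are arrays, coloured and joined by experiment, and black bars are means of 2 arrays; every panel spans the same range. Tead4 and Wwtr1 are lower in 3D in both experiments, whereas for Yap1 and Tead3 the lines of the 2 experiments slope in opposite directions.

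The coactivators differed from each other. Yap1, the best-known effector of the pathway, stood at -0.73 and -0.32 in 3D, against -0.41 and -0.58 in 2D. The groups overlapped, and the order of the cultures was opposite in the 2 experiments. Its mean was -0.53 ± 0.29 in 3D and -0.49 ± 0.12 in 2D (SD, n = 2 each), a difference of -0.03 with a 95% interval of -0.80 to 0.73 (limma, adjusted p = 0.983). The interval leaves room for a difference of either sign. Without scaling, the Yap1 signal was 358 and 319 intensity units in 3D, against 394 and 412 in 2D, differences of -0.14 and -0.37, so the sign in iHep-2 depended on the scaling. Its 1 probe matches the minus strand of mm9 on chromosome 9, from 7932540 to 7932599.

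Wwtr1, whose product TAZ is the paralogue of YAP, stood at 1.19 and 0.64 in 3D, against 1.72 and 1.97 in 2D. Both 3D arrays lay below both 2D arrays. The mean was 0.91 ± 0.39 in 3D and 1.85 ± 0.18 in 2D (SD, n = 2 each), a difference of -0.93 ± 0.31 (SE; limma, adjusted p = 0.684). Differences within the experiments were -0.53 and -1.34. The brighter probe (chromosome 3, 57262551 to 57262610 of mm9) gave these values. The second probe lies over an exon junction, since it spans 3468 bases of mm9 (chr3:57263010-57266477, minus strand) at a length of 60 bases. It gave -0.18 and -1.38, so the probes were close in iHep-2 and less so in iHep-1. Its unscaled signal was 566 and 299 intensity units in 3D, against 565 and 1200 in 2D. The sequence of this junction probe is shown because it reads the spliced mRNA at another place than the first probe.
Wwtr1 junction probe: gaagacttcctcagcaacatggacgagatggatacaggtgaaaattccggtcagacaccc

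Relative to Yap1 on the same arrays, Wwtr1 differed by -0.20 in iHep-1 and by -1.59 in iHep-2. A common scaling factor cancels from these numbers, because both genes share the array. In iHep-2 the ratio of Wwtr1 to Yap1 signal in 3D was 33.1% of that in 2D, and in iHep-1 it was 86.8%. With the brighter Wwtr1 probe the ratio was therefore lower in 3D in both experiments, but by very unequal amounts. The second Wwtr1 probe differed by -0.18 in iHep-1, against -0.32 for Yap1, so the sign there depended on the probe.

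Among the TEADs, which bind DNA and recruit YAP and TAZ, Tead4 stood at -1.83 and -2.08 in 3D, against -0.65 and 0.37 in 2D. The 3D arrays lay close together and below both 2D arrays, and the 2D arrays were 1.02 log2 units apart. The mean was -1.95 ± 0.17 in 3D and -0.14 ± 0.72 in 2D (SD, n = 2 each), a difference of -1.81 ± 0.44 (SE) with a 95% interval of -3.10 to -0.52 (limma, unadjusted p = 0.0187, adjusted p = 0.684). Unscaled, the signal was 167 and 94.6 intensity units in 3D, against 333 and 798 in 2D. Of all tested genes, 1.71% had a lower mean difference. Tead4 was the 1 member at least 1 log2 unit lower in both experiments, against 2.13% of all genes (4.26% were that much higher). Its only probe matches the minus strand of mm9 on chromosome 6, from 128177377 to 128177436.

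Tead1, the founding member of the family, could be read only through an older gene name. The probe that carries the name Tead1 (chromosome 7, 120043000 to 120043059 of mm9) was not well above background on any array, with 2.97 and 1.77 intensity units in 3D, against 2.21 and 4.18 in 2D. The other 2 probes carry the name 2610024B07Rik, which RefSeq lists as a synonym of Tead1, and lie further along the same strand, at 120047757 and 120049844. The brighter of these stood at 2.59 and 0.82 in 3D, against 3.01 and 2.77 in 2D. Both 3D values were below both 2D values, and the 3D array of iHep-2 was far below the other 3. The differences were -0.42 and -1.95, and the mean difference was -1.19 ± 0.70 (SE; limma, adjusted p = 0.723). Leaving out 3D replicate 2 gave -0.30, and leaving out 3D replicate 1 gave -2.07. The dimmer probe of that name gave -0.47 and -1.51.

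Tead2 had a larger difference between experiments than between cultures. It stood at -3.27 and -1.85 in 3D, against -2.91 and -0.92 in 2D, so iHep-2 exceeded iHep-1 by 1.42 log2 units in 3D and by 2.00 in 2D. The cultures overlapped, although 3D was below 2D within each experiment (-0.36 and -0.94). The mean difference was -0.65 ± 0.94 (SE; limma, adjusted p = 0.872), and with the experiment as a replicate block its standard error was 0.27 (adjusted p = 0.417). The unblocked difference turned to 0.35 without 2D replicate 2 and to 0.06 without 3D replicate 1. A second Tead2 probe (chr7:52487612-52487671 of mm9, plus strand) gave -0.47 and -0.83. It is shown as the second reading of a gene whose cultures overlap.
Tead2 second probe: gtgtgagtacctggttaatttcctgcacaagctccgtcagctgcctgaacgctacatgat

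Tead3 was dim, with a mean difference near 0. It stood at -3.81 and -3.47 in 3D, against -3.69 and -3.62 in 2D, and the groups overlapped. The mean difference was 0.02 with a 95% interval of -0.69 to 0.72 (limma, adjusted p = 0.989), and its sign was negative under scaling to the median, to the spike-in controls, to quantiles and in the authors' series table. Its 1 probe lies over an exon junction (chr17:28469722-28469898 of mm9, minus strand). Its letters are given because the near-zero mean difference rests on this probe alone.
Tead3 junction probe: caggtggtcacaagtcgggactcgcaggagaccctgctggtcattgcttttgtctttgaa

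Measured against Tead3 on the same arrays, Tead4 differed by -1.05 and -2.61, Tead1 by -0.29 and -2.11, and Tead2 by -0.23 and -1.09. The TEAD genes therefore differed by unequal amounts on the same arrays. Tead3 had the highest difference of the TEADs in both experiments, so all 6 of these values are negative by the choice of reference. A common scaling factor cancels from each.

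The kinase arm was lower in 3D in both experiments for all 4 genes, within a narrow range of -0.45 to -0.11 in iHep-1 and of -0.80 to -0.51 in iHep-2. In each of these genes both 3D arrays lay below both 2D arrays. The same held for Wwtr1, Tead1 and Tead4, 7 of 10 members in all, against 21.5% of all tested genes, and 0 members had both 3D arrays above both 2D arrays, against 19.8%. Adjusted p-values of the kinase arm lay between 0.685 and 0.770 (limma).

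Stk3, the gene of the kinase MST2, stood at 1.22 and 0.75 in 3D, against 1.33 and 1.32 in 2D. The 3D array of iHep-1 was close to the 2D arrays, and that of iHep-2 was lower. The mean difference was -0.34 ± 0.27 (SE; limma, adjusted p = 0.770). Leaving out 3D replicate 2 gave -0.10 for Stk3, and leaving out 3D replicate 1 gave -0.57. A second, dimmer Stk3 probe gave 0.11 and -0.36, and the 2 other Stk3 probes were not well above background on any array. The kept Stk3 probes therefore differed in sign in iHep-1.

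Stk4, the gene of the kinase MST1, stood at -1.20 and -1.05 in 3D, against -0.90 and -0.38 in 2D. The mean difference was -0.48 ± 0.29 (SE; limma, adjusted p = 0.723). Leaving out 2D replicate 2 gave -0.23 for Stk4, and leaving out 2D replicate 1 gave -0.74. All 4 Stk4 probes were well above background on all arrays and lower in 3D in both experiments. The other 3 gave -0.22 and -0.83, -0.49 and -0.95, and -0.26 and -0.77. The first and the last of these lie over exon junctions that span 7793 and 2796 bases. The first (chr2:163914725-163922517 of mm9, plus strand) is shown as 1 of the 4 concordant readings.
Stk4 junction probe: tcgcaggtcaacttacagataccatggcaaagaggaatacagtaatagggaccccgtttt

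Sav1, the scaffold that joins MST kinases to LATS, had the largest difference of the kinase arm. It stood at 1.81 and 1.34 in 3D, against 2.26 and 2.14 in 2D. The 2D arrays were close together, and both 3D arrays were lower. The mean was 1.58 ± 0.34 in 3D and 2.20 ± 0.09 in 2D (SD, n = 2 each), a difference of -0.62 ± 0.27 (SE; limma, adjusted p = 0.685), and it was -0.39 without 3D replicate 2. Its second probe gave -0.36 and -0.68.

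Lats1, the kinase that phosphorylates YAP and TAZ, stood at 1.65 and 1.45 in 3D, against 1.86 and 1.96 in 2D. The mean was 1.55 ± 0.14 in 3D and 1.91 ± 0.07 in 2D (SD, n = 2 each), a difference of -0.36 ± 0.22 (SE; limma, adjusted p = 0.723). A second Lats1 probe, well above background on 2 of 4 arrays, gave -0.39 and -0.16.

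**Figure D2:**
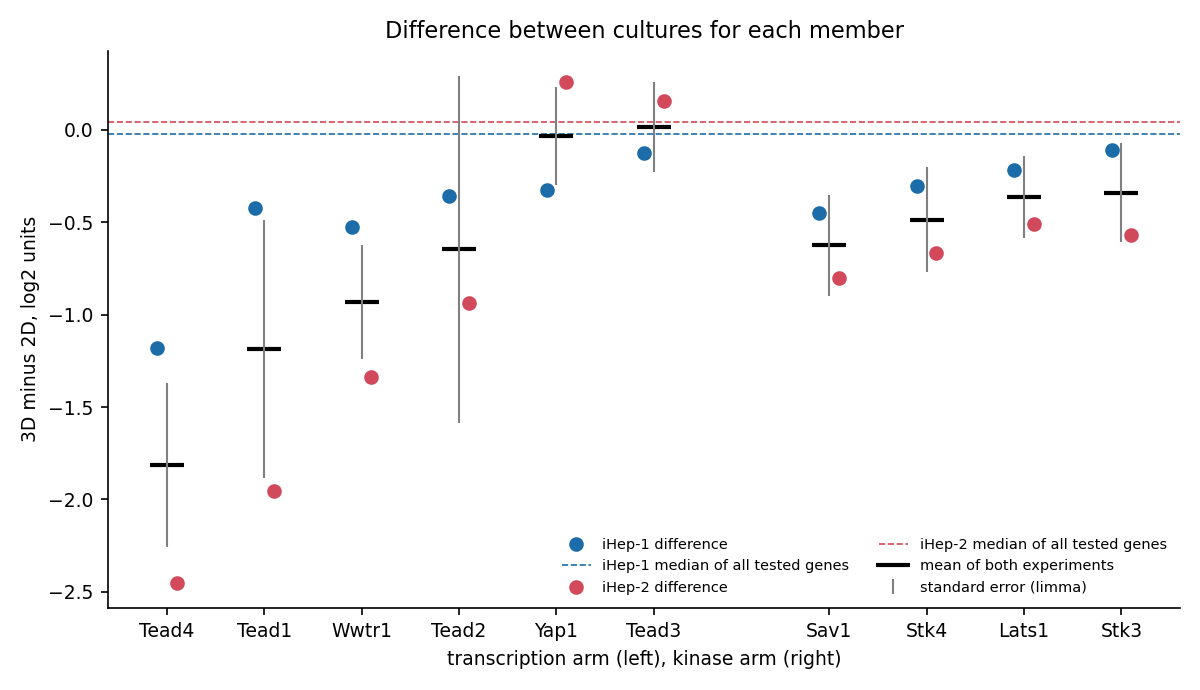
Difference between cultures (3D minus 2D, log2 units) for each member, ordered by mean within the transcription arm and the kinase arm. Points are the 2 experiments, black bars their mean, grey lines the standard error from limma, and dashed lines the median of all tested genes. The kinase arm stays between -0.80 and -0.11, and the transcription arm runs from -2.45 to 0.26.

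The arms differed in spread more than in direction. The median difference of the transcription arm was -0.39 in iHep-1 and -1.14 in iHep-2, and that of the kinase arm was -0.26 and -0.62. All tested genes had medians of -0.02 and 0.04. The 6 genes of the transcription arm ran from -1.18 to -0.13 in iHep-1 and from -2.45 to 0.26 in iHep-2, a wider range than that of the 4 kinase-arm genes in each experiment. In iHep-1 much of that width came from Tead4. Its other genes ran from -0.53 to -0.13 there, against -0.45 to -0.11 for the kinase arm. A range over 6 genes also tends to exceed one over 4. For the mean of both experiments, the arm medians were -0.79 and -0.42, and the transcription arm stood 0.37 below the kinase arm (-0.37). That last value ran from -0.57 without 2D replicate 1 to -0.057 without 3D replicate 1, with -0.13 when 2D replicate 2 was left out and -0.15 when 3D replicate 2 was. For the transcription arm alone, leaving out 2D replicate 2 gave a median of -0.46, and leaving out 3D replicate 2 gave -0.48. Its members ran from Tead4 to Yap1 and Tead3, so no single value stands for the arm.

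Under the main scaling, all 8 members that were lower in both experiments had larger negative differences in iHep-2 than in iHep-1. Over all tested genes the SD of the differences was also wider in iHep-2 (1.20) than in iHep-1 (0.83). The sum of cycling-cell markers in 3D relative to 2D was likewise lower in iHep-2. The order of the experiments in the members depended on the scaling. With spike-in scaling it turned for Wwtr1 (-2.20 and -1.86), Tead2 (-2.03 and -1.46) and Stk3 (-1.79 and -1.10). It also turned for Stk4 (-1.98 and -1.19), Sav1 (-2.13 and -1.33) and Lats1 (-1.89 and -1.03). Tead1 (-2.10 and -2.48) and Tead4 (-2.85 and -2.97) kept the order. The gap between iHep-2 and iHep-1 in these sizes has no test, because a culture had a single array in each.

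**Figure D3:**
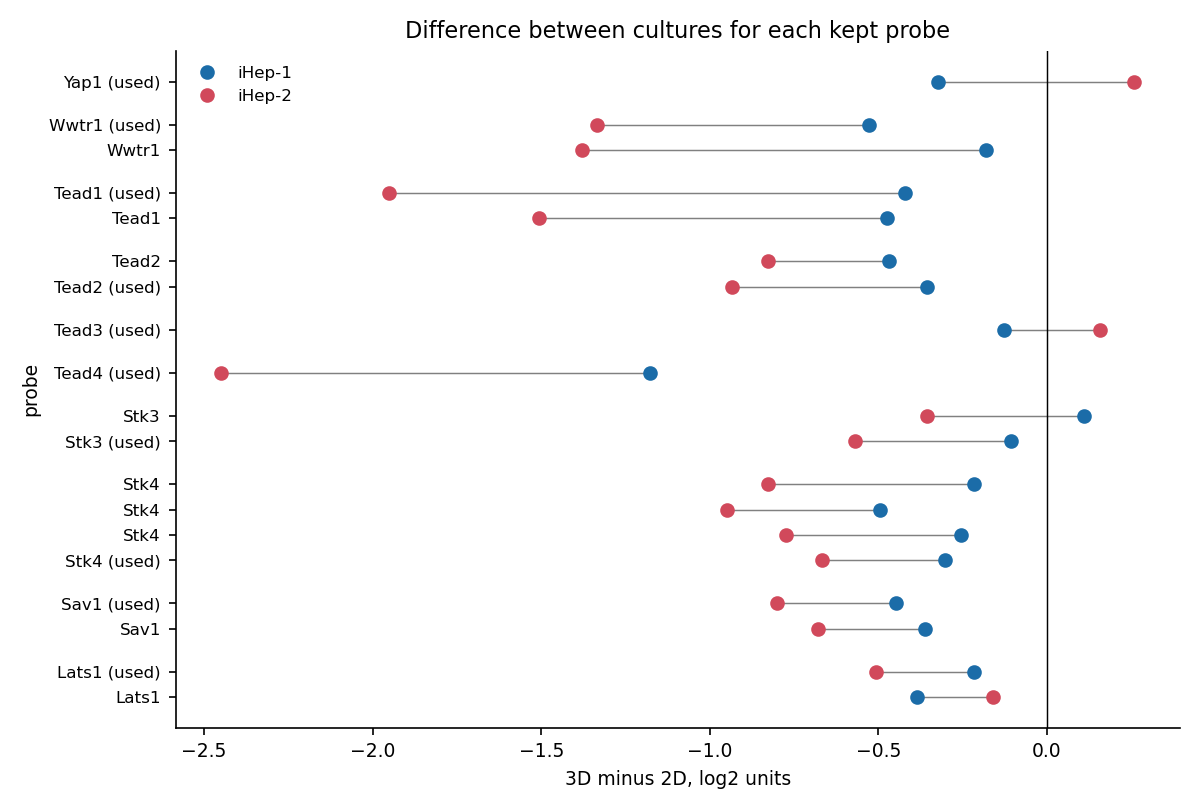
Difference between cultures (3D minus 2D, log2 units, horizontal axis) for each of the 19 kept probes of the members, by experiment. Rows marked as used gave the gene's value; 16 of the 19 probes are negative in both experiments, and the exceptions belong to Yap1, Tead3 and Stk3.

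Of the 19 kept probes, 16 were lower in 3D in both experiments and 0 were higher in both. The transcription arm had 7 of 9 such probes and the kinase arm 9 of 10. Of the members, 7 had 2 or more kept probes, whereas Yap1, Tead3 and Tead4 each rested on 1. Probes of one gene share its mRNA and are not replicates of a culture.

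All 8 members lower in both experiments were so under each of 6 scalings and background corrections. The signs of Yap1 and Tead3 depended on this choice, and so did the size of the differences. Scaled to the median, Tead3 was also lower in both experiments (-0.27 and -0.0083), and Yap1 in iHep-2 was -0.27 with spike-in scaling. Labelling spike-in controls were 1.86 log2 units brighter in 3D than in 2D in iHep-1 and 0.10 dimmer in iHep-2 (-0.10). Scaled to them, the median of all genes was -1.70 and -0.48, all 10 members were lower in both experiments, and so were 73.4% of all genes. Without any scaling, 8 members were lower in both, but Yap1 was among them (-0.14 and -0.37), while Stk3 (0.08 and -1.20) and Tead3 (0.06 and -0.47) were not.

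**Figure D4:**
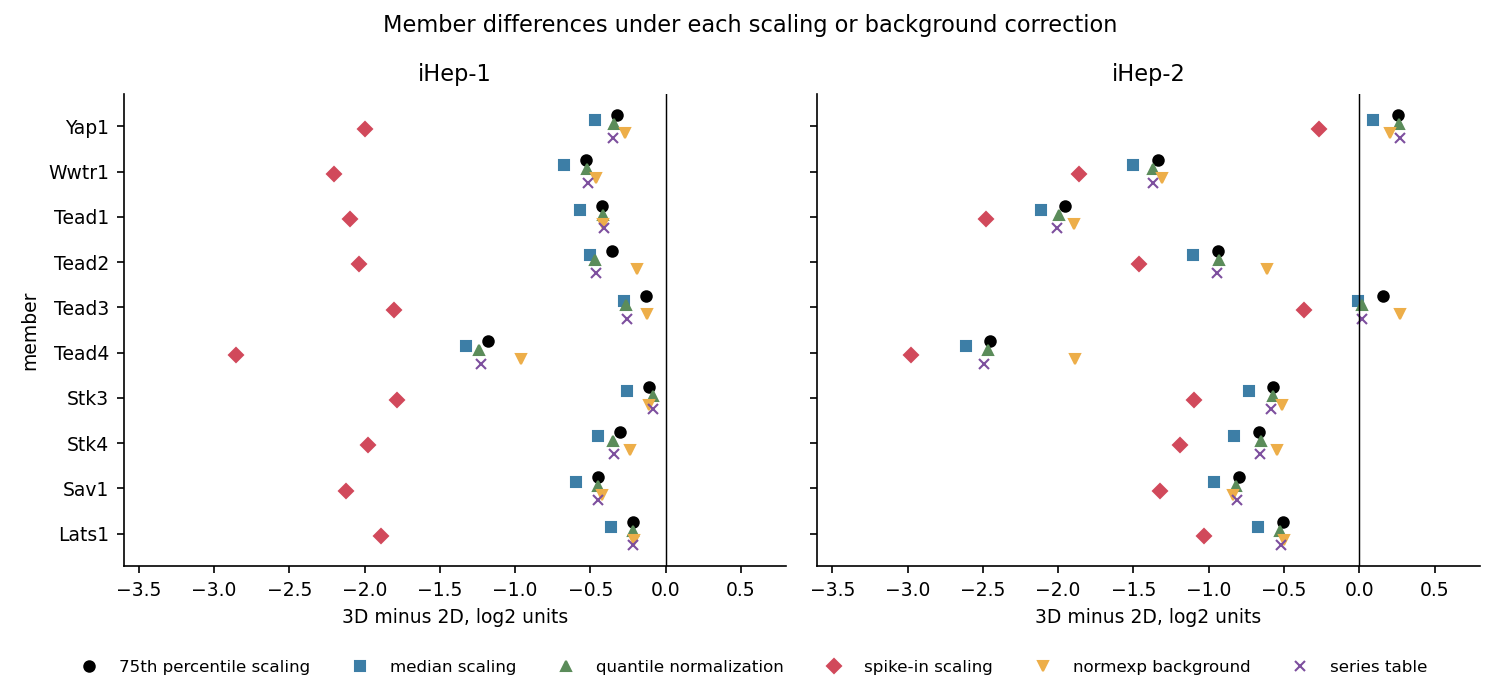
Difference between cultures (3D minus 2D, log2 units, horizontal axis) for each member under 6 scalings or background corrections, with iHep-1 on the left and iHep-2 on the right. Spike-in scaling moves every member to the left, most in iHep-1, where the all-gene median is -1.70; Tead4 is the lowest member in iHep-1 under each of the 6.

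Of 33 further pathway genes, 29 were tested. Of these, 17 were lower in both experiments and 5 higher, against 33.0% and 33.2% of all genes, and the list medians were -0.20 and -0.38. None passed the adjusted threshold in either direction by limma, and 2 had an unadjusted p under 0.05, both lower. Amotl1, Fat4, Rassf5 and Vgll3 were not tested, because no probe was well above background on 2 arrays with a value on all 4. Lats2, the second LATS kinase and itself a known YAP target, stood at 1.46 and 0.46 in 3D, against 2.16 and 1.74 in 2D. Its difference from Lats1 on the same arrays was -0.48 and -0.78, so the difference between cultures was larger for Lats2 than for Lats1 in both experiments. The LATS cofactor Mob1a differed by -0.39 and -0.72 and its paralogue Mob1b by -0.32 and -0.12.

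Upstream, Nf2, the gene of the membrane-associated activator merlin, stood at -0.19 and -0.27 in 3D, against -0.04 and -0.02 in 2D. Amot, an angiomotin that binds YAP, was 0.55 and 1.94 in 3D, against 1.38 and 2.86 in 2D, with nearly equal differences of -0.83 and -0.91. Ajuba, a LIM protein that inhibits LATS, was the only one of the 29 to be at least 1 log2 unit lower in both experiments (2.13% of all genes were). It stood at 0.25 and 0.44 in 3D, against 1.59 and 2.34 in 2D, and both 3D arrays lay below both 2D arrays (-1.62 ± 0.35, SE; limma, adjusted p = 0.684). Wtip (-1.28 and -0.999) narrowly missed the cut of 1 log2 unit in iHep-2, and both its 3D arrays also lay below both 2D arrays. Vgll4, which competes with YAP for TEADs, was dim and differed by -0.31 and -1.59.

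Of 21 known YAP and TEAD target genes, all tested, 13 were lower in both experiments (33.0% of all genes were) and 1, Axl, was higher (0.94 and 0.48, though not with spike-in scaling; 33.2% of all genes were). The list medians were -0.25 and -1.58. Of the 18 targets well above background on all 4 arrays, 10 were lower in both. The median for the mean of both experiments was -1.06, with -0.23 when 2D replicate 2 was left out and -0.55 when 3D replicate 2 was. It was also smaller with normexp background correction (-0.54), when every array had to read a probe well above background (-0.50), and with the mean of a gene's probes (-0.53). The YAP targets Ccn2 (-1.80 and -2.92) and Amotl2 (-1.64 and -2.73) were among the 7 at least 1 log2 unit lower in both experiments, against 2.13% of all genes. Of these 7, 5 were well above background on all 4 arrays, and Fjx1 was not one of the 5. Ccn1 differed by -0.71 and -4.08. Ankrd1 and Fjx1, both counted among the 13, were well above background on the arrays of iHep-2 but on neither array of iHep-1, so their iHep-1 differences compare background readings. In iHep-2, Ankrd1 had 40.4 intensity units in 3D, against 3843 in 2D. None of the 21 passed the adjusted threshold (limma), and 4 had an unadjusted p under 0.05, all lower (2.98% of all genes).

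By their values over the 4 arrays, the genes most like Tead4 were Chrnb1, Fbxo5 and Tcf19. After each gene was centred on its own mean, none of the 3 deviated from Tead4 by more than 0.14 log2 units on any array. Fbxo5, an inhibitor of the anaphase-promoting complex, differed between cultures by -1.28 and -2.58. In all, 12 genes lay within 0.25 log2 units of Tead4. The genes most like Sav1 were Thada, Fam161b and AK047419, within 0.04, but 704 genes lay within 0.25 of Sav1. On the 3D array of iHep-2, Thada (-5.76) and AK047419 (-5.69) were below the lowest value well above background there (-5.56). Sav1 differed less between arrays than Tead4, so the same distance is looser for Sav1 and the counts of 704 and 12 are not comparable.

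Promoter windows of 300 bases, 250 before and 50 after a transcript start, were taken from RefSeq (build GRCm38.p6), which held 10 windows for 7 of the members. They were searched on both strands for GGAATG, the core of the motif that TEAD proteins bind, whose reverse complement is CATTCC. It was found in 6 of these 10 windows, belonging to Yap1, Wwtr1, Tead3 and Sav1, and in 14.7% of 32851 windows of all genes. The pair of Wwtr1 windows overlap and share 1 match, and the Tead3 windows also overlap. Counted by gene, 4 of the 7 members had a match in any window, against 16.6% of 27025 genes. The windows of Tead2, Stk4 and Lats1 did not hold these letters. Among the 4 genes with a match, Wwtr1 and Sav1 were lower in 3D in both experiments and Yap1 and Tead3 were not, and a match is a description of letters and not a binding site. The windows of Wwtr1 (chr3:57575827-57576126), Sav1 (chr12:69986953-69987252) and Yap1 (chr9:8004547-8004846), all on the minus strand, show where the match, in capitals, lies for a pair of genes that were lower and one that was not.
Wwtr1 promoter: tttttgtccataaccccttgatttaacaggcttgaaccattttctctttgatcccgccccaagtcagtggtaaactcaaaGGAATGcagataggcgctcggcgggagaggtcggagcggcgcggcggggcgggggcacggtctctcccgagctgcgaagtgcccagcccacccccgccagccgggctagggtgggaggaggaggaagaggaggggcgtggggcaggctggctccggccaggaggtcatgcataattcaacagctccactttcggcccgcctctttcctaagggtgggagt
Sav1 promoter: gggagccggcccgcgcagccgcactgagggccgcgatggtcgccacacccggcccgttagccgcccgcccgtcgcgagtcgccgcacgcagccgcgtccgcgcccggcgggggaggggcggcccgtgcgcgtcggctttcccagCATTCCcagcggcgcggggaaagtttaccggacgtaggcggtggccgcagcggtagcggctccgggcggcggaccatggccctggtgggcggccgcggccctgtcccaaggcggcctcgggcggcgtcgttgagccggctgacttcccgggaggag
Yap1 promoter: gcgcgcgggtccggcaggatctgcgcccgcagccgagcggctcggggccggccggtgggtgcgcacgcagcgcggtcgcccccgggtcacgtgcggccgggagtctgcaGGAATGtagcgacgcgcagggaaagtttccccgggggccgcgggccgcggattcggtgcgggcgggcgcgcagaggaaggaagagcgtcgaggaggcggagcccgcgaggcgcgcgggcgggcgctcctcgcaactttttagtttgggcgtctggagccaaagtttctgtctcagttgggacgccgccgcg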

How the data were processed

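Total RNA of 4 iHep cultures was labelled with Cy3 and hybridised to 1-colour Agilent arrays of design 014868, all on 1 slide and scanned at 1 time, per the labels' protocols and the file headers. The deposited scanner files hold linear intensity values, including a signal background-corrected by Agilent Feature Extraction, whose version is 10.7.1.1 per the file headers and 9.5.1.1 per the submitters' processing notes. Probe positions refer to mm9, per the file headers. A series table from the authors gives intensity on a linear scale too; no label or header states how it was made. Its columns had medians of 26.3 (both arrays of iHep-1) and 22.6 (both of iHep-2), and it ranked probes as the processed signal did.

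For each array, log2 of the processed signal minus its 75th percentile was taken, outlier-flagged spots (72 to 85 per array) were left out, and spots of a probe were averaged. No noncontrol spot was saturated. Probes well above background numbered 23061 to 24411 per array. Probes were named by RefSeq accession (24836), by current or unique older symbol (7860) or as in the files (8478). Probes named Taz and Mst1 belong to tafazzin and macrophage stimulating 1 and were not used. A gene took its kept probe with the highest mean. The comparison of 3D with 2D used limma (version 3.58.1, R 4.3.3; two-sided p-values, Benjamini-Hochberg adjustment over 16450 genes). The fit was also run on simulated data whose arrays were independent, so that run does not show how it performs on paired arrays. Each p-value measures the spread between 2 experiments. The design text names 2 experiments, so replicate numbers mark pairs (arrays of the same number deviated from their culture means together, r = 0.66 across genes); a fit with this block was an alternative, as were other scalings, background correction, probe filters, a trended prior, averaging probes and leaving out each array. The named genes are all members, 6 set pathway genes with any at least 1 log2 unit apart in both experiments, 5 set targets, and the 3 genes nearest to the member of each arm with the largest difference. Wtip was named after the data were seen, because it narrowly missed the cut of 1 log2 unit. The members, lists and tests were chosen with earlier results of these data known.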

Additional observations from a re-analysis of the deposited data

How the results depend on the processing

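Of 140 member differences recomputed over 14 alternatives, 130 kept their sign, 10 turned it, and none passed the adjusted threshold. Tead3 (0.02) turned to -0.14 with median scaling, -0.12 with quantile normalization, -1.09 with spike-in scaling and -0.12 with the series table. Leaving out 1 array each, Tead3 ran from -0.16 to 0.19, Yap1 from -0.24 to 0.17 and Tead2 from -1.64 to 0.35. The value of the transcription arm minus the kinase arm ran from -0.57 to -0.057 (the cause was not tested). With the experiment as a replicate block, limma again called 0 genes higher and 0 lower, with 2178 genes at an unadjusted p under 0.05 against 1157 without it; the block changed no member's call (adjusted p from 0.322).

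Spike-in scaling moved most values, since it shifted the median of all genes to -1.08. With it, 76 genes were called higher and 215 lower, where the main scaling called 0. In that fit limma's prior had infinite degrees of freedom, against 1.58 in the main fit, so every gene took a common variance. These counts are therefore not comparable with those of the main scaling. The arm medians were -1.89 (transcription) and -1.52 (kinase) with spike-in scaling. The further pathway genes had a median of -1.41, with 27 lower and 0 higher in both experiments. The targets then had a median of -2.16, with 21 lower and 0 higher in both. With median scaling the further pathway genes had a median of -0.47, with 1 higher in both. Using only probes under current symbols, chosen after the data were seen, drops Tead1 and left the transcription arm median at -0.65 and its distance from the kinase arm at -0.22. Counts over both experiments have no value when an array is left out, and a common shift by median or spike-in scaling cancels from the difference between the arms.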
